A study of Mus musculus with 8 samples.

Results

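Transcripts of 42 genes of the sarcomere and of striated muscle were followed in thymus lobes of C57BL/6NTac mice. The list names genes by symbol, and each of the 42 had a single probe set with 1 annotated gene, out of 19938 genes measured. The list held 21 genes of skeletal muscle, 10 of the heart and 11 shared by both kinds of striated muscle. Spaceflight mice (4, 8 weeks old) spent 13 days on the space shuttle, and ground-control mice (4), matched in age and sex, stayed on Earth in animal enclosure modules. One array was made per mouse. All values are log2 expression values as deposited, so a difference of 1 is a 2-fold change, and every difference is spaceflight minus ground control.

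The sarcomere is the contractile unit of striated muscle. Myosin heavy and light chains form its thick filaments, actin and the troponins its thin filaments, and titin and nebulin set its length, while ryanodine receptors, calcium pumps and calsequestrins move the calcium that starts each contraction. The thymus is not a contractile organ. A few muscle-like myoid cells are known in it, its medullary epithelium transcribes many genes of other tissues, and it lies in the chest above the heart, beside the great vessels. Thymic identity of the lobes was clear on every array: Rag1, part of the recombinase of immature thymocytes, lay between 12.35 and 12.55 in spaceflight and between 12.29 and 12.64 in ground control. Rag1 does not show an equal thymocyte content. All 8 listed markers of double-positive thymocytes had lower means in spaceflight, against 53.5% of all genes, from -0.02 for Rag1 to -0.25 for Rag2. Of these, 0 had a limma adjusted p under 0.05. In a bulk tissue, fewer cells of a type and less RNA per cell cannot be told apart.

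Among the promoters of the list, 5 held a CArG box, the binding site of serum response factor in actin and myosin light chain genes. They are shown because they belong to genes of all 3 classes that are followed below. RefSeq promoters (GRCm38.p6, 250 bases before to 50 after the transcription start) were matched for 36 of the 42 genes. The stretch of 130 bases printed here runs from 110 before to 20 after the start, 5′ to 3′ on the gene's strand, with the CArG box in capitals. Acta1 lies at chr8:123894756-123894885 (minus strand), Myh4 at chr11:67237702-67237831 (plus strand), Actc1 at chr2:114052856-114052985 (minus strand), Myl7 at chr11:5898763-5898892 (minus strand) and Myl3 at chr9:110763568-110763697 (plus strand).
Acta1: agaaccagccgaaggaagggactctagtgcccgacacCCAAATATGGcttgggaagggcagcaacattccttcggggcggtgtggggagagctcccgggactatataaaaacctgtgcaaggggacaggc
Myh4: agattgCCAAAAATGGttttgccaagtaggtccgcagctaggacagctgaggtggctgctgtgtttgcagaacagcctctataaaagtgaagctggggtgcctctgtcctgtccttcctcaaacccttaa
Actc1: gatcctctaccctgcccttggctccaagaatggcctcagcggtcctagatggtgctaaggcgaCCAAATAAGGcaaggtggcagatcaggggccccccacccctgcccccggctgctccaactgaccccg
Myl7: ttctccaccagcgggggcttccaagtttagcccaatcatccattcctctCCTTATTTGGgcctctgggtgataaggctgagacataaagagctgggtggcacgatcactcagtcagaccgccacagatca
Myl3: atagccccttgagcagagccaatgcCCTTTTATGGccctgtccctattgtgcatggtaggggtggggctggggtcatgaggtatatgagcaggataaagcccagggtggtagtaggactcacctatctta
The first base of the box lay 73 bases before the start in Acta1, 104 in Myh4, 47 in Actc1, 61 in Myl7 and 85 in Myl3. A CArG box, searched on both strands, was found in 1.63% of all 32851 promoters of this length in the table. The MEF2 site was found in promoters of 6 matched members (Casq2, Mybpc3, Myh1, Myh4, Pvalb and Ttn) and in 3.19% of all promoters. The M-CAT element (CATTCC on either strand) was found in 13 members and in 14.7% of all promoters, and the E-box (CANNTG, its own reverse complement) in 32 members and 72.3%. These matches describe the letters in the window and were not tested as binding sites.

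No muscle gene passed the test between spaceflight and ground control. Of the 42 genes, 0 had a limma adjusted p under 0.05 over all genes (smallest 0.330, Tcap), where 0.0502% of all genes were called, 0.0401% lower and 0.01% higher. At an unadjusted p under 0.05, 2 genes were lower (Pvalb and Casq1) and 1 was higher (Tcap), against 7% of all genes lower, 3.05% higher and 10.1% in either direction. That count of 3 was 2 without spaceflight replicate 1 (1 lower and 1 higher, against 4.65% and 1.92% of all genes), and 6 without spaceflight replicate 2, against 16.3% of all genes in that fit (14.3% of the muscle genes). It was 9 without spaceflight replicate 3 (21.4% of the muscle genes, 7.19% of all genes). It was 5 without ground-control replicate 1 (11.9% of the muscle genes, 8.25% of all genes) and 5 without ground-control replicate 2 (11.9%, against 9.59%). The mean was below ground control for 34 of 42 genes, against 53.5% of all genes, and the median difference was -0.29, against -0.02 over all genes. By class the median difference was -0.29 for the 21 skeletal, -0.30 for the 10 cardiac and -0.26 for the 11 shared genes.

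Most of the median difference came with 1 array. Spaceflight replicate 1 held the lowest of the 8 values for 27 of 42 genes, against 22.9% of all genes. Among genes whose values spanned at least 1 log2 unit it was the lowest for 23 of 29 muscle genes and for 51.8% of all genes. Without it the median difference over the 42 genes was -0.08, against -0.02 over all genes. The means of 24 of the 42 genes were then below ground control, where 53.5% of all genes were below with all 8 arrays. The class medians were -0.07 for skeletal, -0.12 for cardiac and 0.02 for shared genes. At the other end, ground-control replicate 3 was the highest array for 22 muscle genes (19.1% of all genes), and without it the class medians were -0.16, -0.22 and -0.09 in the same order. Leaving out spaceflight replicate 3 gave -0.45 for skeletal and -0.49 for shared genes, and leaving out spaceflight replicate 2 gave -0.42 for shared genes. Over all probe sets, spaceflight replicates 1 and 3 had the narrowest spread of values (interquartile range 2.43 in both, 2.68 to 2.95 on the others), and without both the class medians were -0.21, -0.15 and -0.21.

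**Figure D1:**
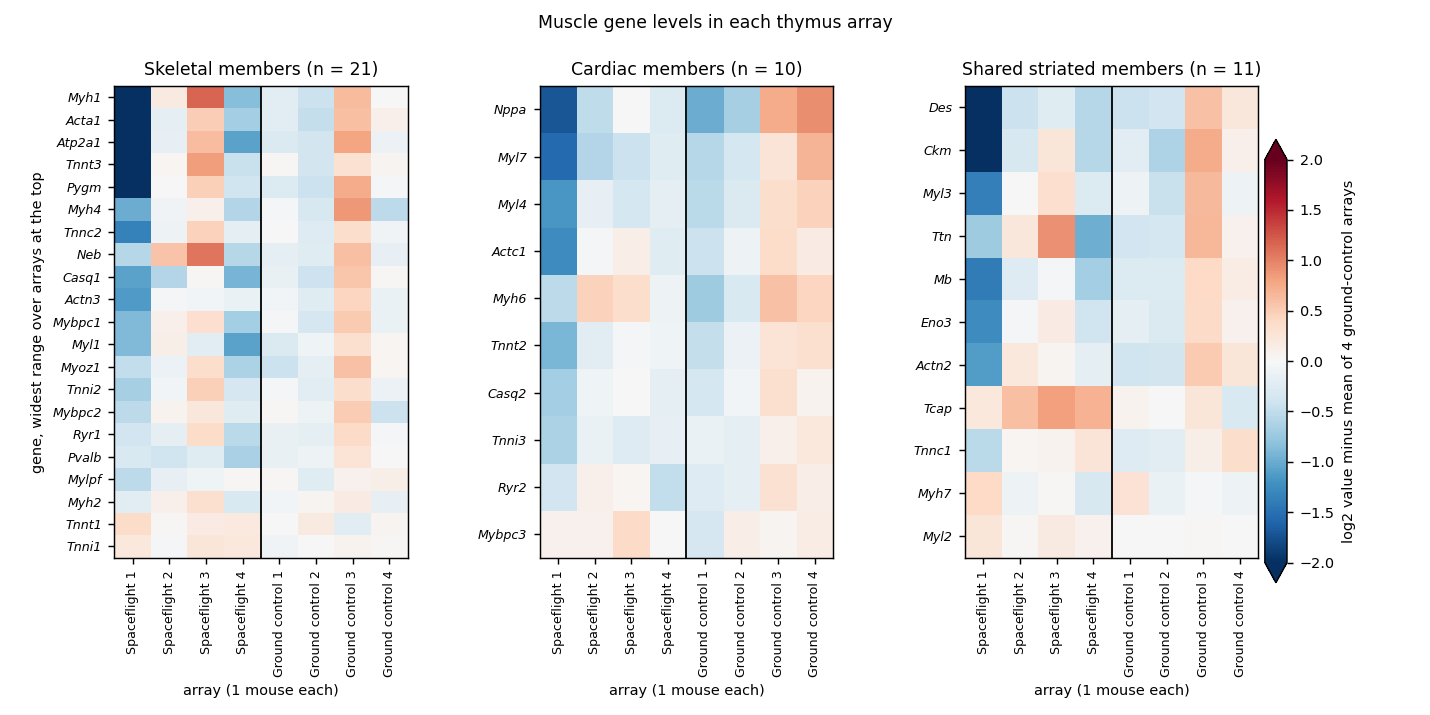
Heat maps of the 42 muscle genes, with a column for each array (spaceflight left of the line, ground control right) and colour for the log2 value minus the mean of the 4 ground-control arrays, limited to 2 log2 units either way. Spaceflight replicate 1 is the darkest blue column in each class, spaceflight replicate 3 and ground-control replicate 3 are red in the skeletal class, and ground-control replicates 3 and 4 are red in the cardiac class.

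The widest ranges over the 8 arrays among the 42 genes were those of Myh1 (4.05 log2 units), Acta1 (3.81), the pump gene Atp2a1 (3.29), Des (2.99) and Tnnt3 (2.93). Acta1, the skeletal alpha-actin of thin filaments, had 6.64, 9.65, 10.34 and 9.17 in spaceflight replicates 1 to 4, against 9.63, 9.37, 10.45 and 9.95 in ground control. Spaceflight replicate 1 lay far below every other array, and spaceflight replicate 3 was close to the top of ground control. The difference was -0.90 ± 0.64 (± SE; limma adjusted p = 0.590), and -0.13 without spaceflight replicate 1. Myh1, the fast myosin heavy chain of type 2X fibres, had 4.20, 7.28, 8.25 and 6.24 in spaceflight, against 6.88, 6.66, 7.73 and 7.09 in ground control. Spaceflight thus held both the lowest and the highest array, and the ranges overlapped completely. Its difference of -0.60 ± 0.69 (limma adjusted p = 0.730) became 0.17 without spaceflight replicate 1. Tnnt3, the fast troponin T that anchors troponin to tropomyosin, had 6.20, 8.34, 9.14 and 7.86 in spaceflight, against 8.33, 7.93, 8.60 and 8.35 in ground control. The order of arrays in spaceflight was that of Acta1 and Myh1. Its difference was -0.42 ± 0.49 (limma adjusted p = 0.736), and 0.14 without spaceflight replicate 1.

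Among calcium handling genes of fast fibres, Atp2a1, the calcium pump SERCA1, had 5.71, 8.06, 8.84 and 7.14 in spaceflight, against 7.93, 7.85, 9.00 and 8.09 in ground control, a difference of -0.78 ± 0.56 (limma adjusted p = 0.589) and of -0.21 without spaceflight replicate 1. Casq1, the skeletal calsequestrin that stores calcium in the sarcoplasmic reticulum, had 5.19, 5.69, 6.29 and 5.34 in spaceflight, against 6.11, 5.85, 6.81 and 6.28 in ground control. Here 3 spaceflight arrays lay below all ground-control arrays and spaceflight replicate 3 lay among them. The difference was -0.64 ± 0.26 (limma adjusted p = 0.462), and -0.49 without spaceflight replicate 1. Pvalb, the calcium buffer parvalbumin of fast fibres, had 4.83, 4.75, 4.89 and 4.49 in spaceflight, against 4.98, 5.04, 5.41 and 5.12 in ground control. Its lowest array was spaceflight replicate 4. It was the 1 muscle gene whose groups did not overlap, where 4.28% of all genes were lower without overlap and 1.73% higher. Its difference of -0.40 ± 0.13 (limma adjusted p = 0.403) was -0.43 without spaceflight replicate 1.

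The light chain Myl1, an essential light chain of fast myosin, had 5.21, 6.21, 5.88 and 5.02 in spaceflight, against 5.81, 6.01, 6.42 and 6.12 in ground control. The 2 lowest arrays were spaceflight replicates 4 and 1, and the difference was -0.51 ± 0.25 (limma adjusted p = 0.505). Tnni1, the slow troponin I, had 5.73, 5.51, 5.76 and 5.74 in spaceflight, against 5.45, 5.51, 5.59 and 5.54 in ground control. Its values spanned only 0.31 log2 units over the 8 arrays, with a difference of 0.16 ± 0.10 (limma adjusted p = 0.553). Tnni2, the fast troponin I, spanned 1.13, and the fast Tnnt3 spanned 2.93 where its slow counterpart Tnnt1 spanned 0.61. For myosin-binding protein C the slow gene Mybpc1 spanned more, 1.40, than the fast gene Mybpc2, 1.03. Among myosin heavy chains the range was 4.05 for Myh1, 1.87 for Myh4 (type 2B), 0.63 for Myh2 (type 2A) and 0.73 for Myh7, the slow and ventricular chain. The table holds no detection calls, so a small range may belong to a probe set close to its own background. The myosin heavy chains, and likewise the actins, are close paralogs whose probe sets can pick up each other's transcripts, which was not tested.

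**Figure D2:**
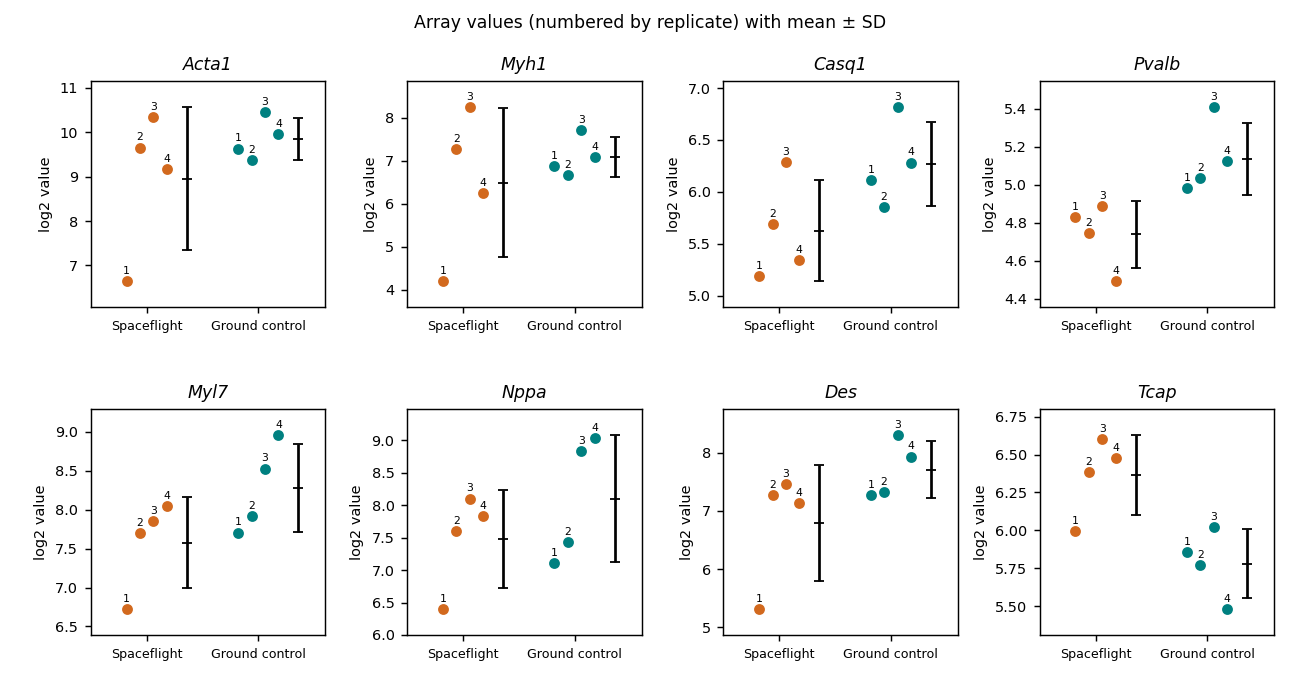
Log2 values of 8 muscle genes on each array, numbered by replicate, with spaceflight left of ground control in each panel and a bar for mean ± SD (n = 4 each). Acta1 reached 6.64 in spaceflight replicate 1 and at least 9.17 on the other arrays, Pvalb did not overlap between groups, and 3 of 4 spaceflight values of Tcap lay above all of ground control.

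Over the 21 skeletal genes, spaceflight replicate 1 was the lowest array for 13 and spaceflight replicate 4 for 6, while ground-control replicate 3 was the highest for 12 and spaceflight replicate 3 for 7. Pygm, the muscle glycogen phosphorylase, spanned 2.73 log2 units, with a difference of -0.48 ± 0.46 (limma adjusted p = 0.674), and 0.02 without spaceflight replicate 1. Neb, the thin-filament ruler nebulin, had 5.90, 7.05, 7.54 and 5.90 in spaceflight, against 6.27, 6.23, 7.07 and 6.31 in ground control. Replicates 1 and 4 were equally low in spaceflight, and the difference was 0.13 ± 0.36 (limma adjusted p = 0.896). It was below 0 without spaceflight replicate 2 (-0.02) or 3 (-0.19). Ryr1, the calcium release channel of skeletal muscle, differed by -0.19, Actn3, the fast-fibre alpha-actinin of the Z-disc, by -0.34, and Myoz1, a calcineurin-binding Z-disc protein, by -0.22. Differences of the other fast genes were -0.39 for Myh4, -0.29 for Tnnc2 (fast troponin C), -0.14 for Tnni2, -0.19 for Mylpf (fast regulatory light chain), -0.12 for Mybpc2 (fast myosin-binding protein C) and -0.03 for Myh2. Mybpc1, the slow myosin-binding protein C, differed by -0.29 and Tnnt1 by 0.19. Tnnt1 was highest in spaceflight replicate 1 (5.44) and lowest in ground-control replicate 3 (4.83), the arrays where Acta1 was lowest and highest. Over all probe sets the spread of values was narrow on the first of these arrays and widest on the second (interquartile range 2.43 and 2.95). Whether this spread moved a gene of low level such as Tnnt1 was not tested. Without spaceflight replicate 1 the difference was -0.07 for Actn3, and it turned above 0 for Tnnc2 (to 0.06), Tnni2 (to 0.03), Mybpc2 (to 0.02) and Myh2 (to 0.04).

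Cardiac genes more often peaked in ground-control replicate 4. It was the highest array for 5 of the 10 cardiac and 1 of the 21 skeletal genes, and for 7 of all 42 muscle genes, against 8.5% of all genes. By class median, the spaceflight arrays had the same order in the cardiac as in the skeletal class. Myl7, the atrial regulatory light chain, had 6.72, 7.70, 7.85 and 8.04 in spaceflight replicates 1 to 4, against 7.71, 7.92, 8.53 and 8.96 in ground control. Ground-control replicates 4 and 3 were the highest arrays and spaceflight replicate 1 was the lowest. The difference was -0.70 ± 0.32 (limma adjusted p = 0.495), and -0.41 without spaceflight replicate 1. Nppa, the atrial natriuretic peptide, had 6.39, 7.60, 8.10 and 7.83 in spaceflight, against 7.10, 7.43, 8.83 and 9.03 in ground control. Ground control held a low and a high pair, with spaceflight replicates 2 to 4 between them. The difference was -0.62 ± 0.48 (limma adjusted p = 0.609), and -0.26 without spaceflight replicate 1. Myl4, the atrial essential light chain, had 7.19, 8.18, 8.00 and 8.18 in spaceflight, against 7.81, 8.07, 8.71 and 8.81 in ground control. It had the same pair of high arrays as Myl7 and Nppa, and a difference of -0.46 ± 0.27 (limma adjusted p = 0.538; -0.23 without spaceflight replicate 1).

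Among thin-filament genes of the heart, Actc1, the cardiac alpha-actin, had 9.79, 11.01, 11.18 and 10.80 in spaceflight, against 10.61, 10.95, 11.41 and 11.21 in ground control, with a difference of -0.35 ± 0.29 (limma adjusted p = 0.627) and of -0.04 without spaceflight replicate 1. Tnnt2, cardiac troponin T, had 7.89, 8.59, 8.78 and 8.72 in spaceflight, against 8.33, 8.69, 9.09 and 9.13 in ground control. Its difference was -0.31 ± 0.23 (limma adjusted p = 0.593), and -0.11 without spaceflight replicate 1. Tnni3, cardiac troponin I, had 5.93, 6.43, 6.31 and 6.40 in spaceflight, against 6.43, 6.38, 6.66 and 6.78 in ground control. Both troponins were highest in ground-control replicate 4, and the Tnni3 difference was -0.30 ± 0.14 (limma adjusted p = 0.499), and -0.18 without spaceflight replicate 1. Myh6, the atrial and adult mouse heart myosin heavy chain, had 7.40, 8.38, 8.27 and 7.82 in spaceflight, against 7.20, 7.61, 8.51 and 8.35 in ground control. Its lowest array was ground-control replicate 1, and the difference was 0.05 ± 0.30 (limma adjusted p = 0.953). It was below 0 without spaceflight replicate 2 (-0.09) or 3 (-0.05) and without ground-control replicate 1 (-0.19) or 2 (-0.05). Casq2, the cardiac calsequestrin, differed by -0.23, Ryr2, the cardiac calcium release channel, by -0.19 and Mybpc3, the cardiac myosin-binding protein C, by 0.14.

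Among the genes shared by heart and skeletal muscle, ground-control replicate 3 was the highest array for 6 of 11 and spaceflight replicate 1 the lowest for 7. Des, the intermediate filament desmin that smooth muscle also makes, had 5.31, 7.27, 7.47 and 7.13 in spaceflight, against 7.28, 7.33, 8.30 and 7.93 in ground control. Spaceflight replicate 1 stood far below the others, and the difference of -0.92 ± 0.43 (limma adjusted p = 0.499) was -0.42 without it. Ckm, the muscle creatine kinase, had 6.19, 7.92, 8.49 and 7.68 in spaceflight, against 8.03, 7.63, 8.98 and 8.35 in ground control. Its difference was -0.68 ± 0.44 (limma adjusted p = 0.563), and -0.22 without spaceflight replicate 1. Mb, the oxygen store myoglobin, had 7.51, 8.66, 8.89 and 8.23 in spaceflight, against 8.64, 8.64, 9.31 and 9.06 in ground control, and differed by -0.59 ± 0.28 (limma adjusted p = 0.498; -0.32 without spaceflight replicate 1). For Ckm and Mb the lowest array was again spaceflight replicate 1 and the highest ground-control replicate 3.

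The sign of the Ttn and Myl3 differences depended on single arrays. Ttn, the giant spring protein of the sarcomere, had 5.89, 6.82, 7.50 and 5.61 in spaceflight, against 6.20, 6.24, 7.25 and 6.68 in ground control. As for Neb, replicates 1 and 4 were both low in spaceflight. The difference of -0.14 ± 0.39 (limma adjusted p = 0.897) was 0.05 without spaceflight replicate 1, 0.14 without spaceflight replicate 4 and 0.08 without ground-control replicate 3. Myl3, the ventricular and slow essential light chain, had 5.40, 6.76, 7.10 and 6.49 in spaceflight, against 6.66, 6.31, 7.41 and 6.66 in ground control. It differed by -0.32 ± 0.34 (limma adjusted p = 0.703), and by 0.02 without spaceflight replicate 1. Myl2, the ventricular and slow regulatory light chain, lay between 4.31 and 4.54 in spaceflight and between 4.28 and 4.31 in ground control. The atrial light chains Myl7 and Myl4 spanned 2.24 and 1.63 log2 units, and Myl2 spanned 0.26.

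Tcap had the largest positive difference of the 8 muscle genes above 0. Tcap, or telethonin, caps titin at the Z-disc, and had 6.00, 6.39, 6.60 and 6.48 in spaceflight, against 5.86, 5.77, 6.02 and 5.48 in ground control. The groups met only at spaceflight replicate 1 and ground-control replicate 3. The difference was 0.58 ± 0.16 (limma adjusted p = 0.330), and 0.71 without spaceflight replicate 1 (limma adjusted p = 0.259). The other shared genes differed by -0.38 (Eno3, muscle enolase), -0.26 (Actn2, the alpha-actinin of heart and skeletal Z-discs), -0.04 (Tnnc1, slow and cardiac troponin C), 0.00 (Myh7) and 0.13 (Myl2). Without spaceflight replicate 1 the difference turned sign for Actn2 (to 0.02), Tnnc1 (to 0.13) and Myh7 (to -0.14).

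**Figure D3:**
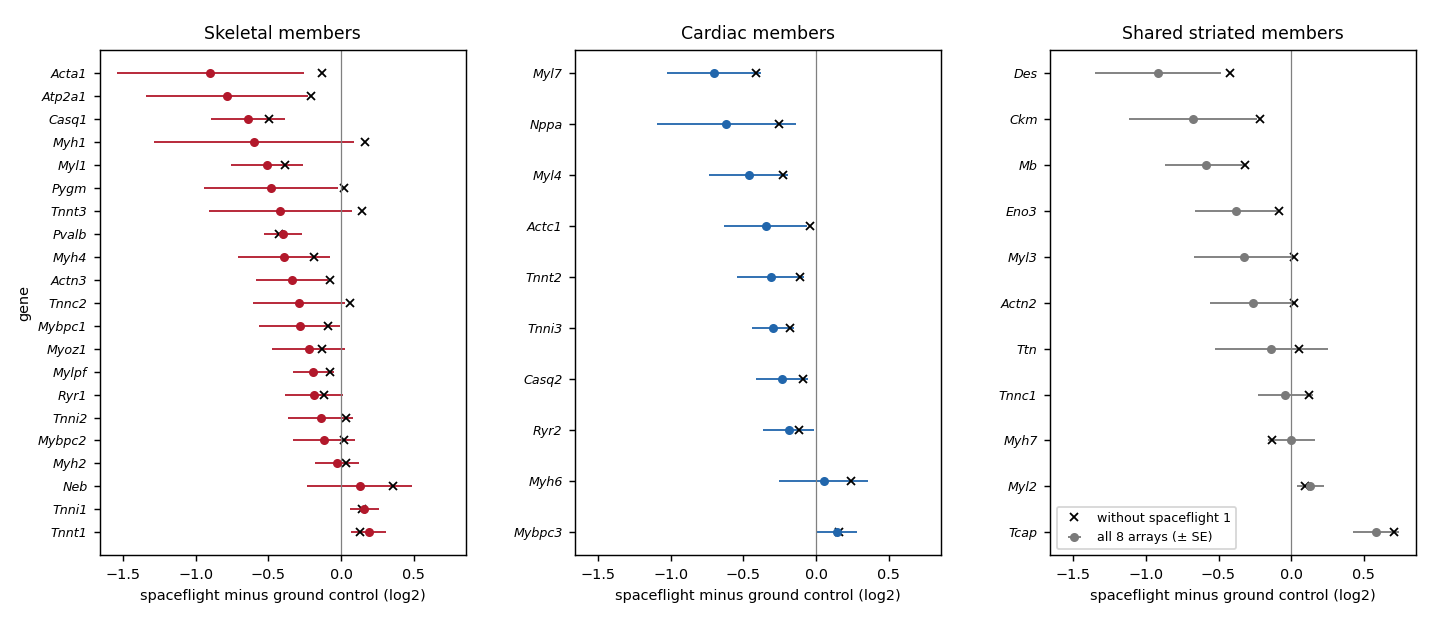
Spaceflight minus ground control in log2 units for each muscle gene, with bars for ± SE over all 8 arrays (points) and the same difference without spaceflight replicate 1 (crosses). Acta1 moves between -0.90 and -0.13, Des between -0.92 and -0.42, and Tcap is the highest at 0.58.

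Skeletal and cardiac genes were then compared within each array. For each array the median over a class was taken of the log2 value minus the gene's ground-control mean. The skeletal median was -0.88, -0.03, 0.33 and -0.54 in spaceflight replicates 1 to 4, against -0.07, -0.24, 0.43 and -0.04 in ground control. The cardiac median was -0.80, -0.11, -0.00 and -0.18 in spaceflight, against -0.46, -0.18, 0.32 and 0.27 in ground control. Both classes were low in spaceflight replicate 1 and high in ground-control replicate 3, and they parted on other arrays. Skeletal minus cardiac was -0.09, 0.08, 0.33 and -0.37 in spaceflight, against 0.38, -0.06, 0.11 and -0.30 in ground control. The mean of this quantity was -0.01 ± 0.29 in spaceflight and 0.03 ± 0.29 in ground control (SD, n = 4 each), so the groups differed by -0.04, well inside the spread between mice. Leaving out single arrays turned its sign, to 0.07 without spaceflight replicate 4, 0.10 without ground-control replicate 1 and 0.02 without ground-control replicate 3. It was -0.16 without spaceflight replicate 3, -0.13 without ground-control replicate 4 and -0.02 without spaceflight replicate 1.

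The arrays at either end of these skeletal-minus-cardiac values were also compared gene by gene, as a description. Because they were picked by these values, a split between the classes was largely set by the choice. In ground control, replicate 4 exceeded replicate 1 for 10 of 10 cardiac genes and for 14 of 21 skeletal genes, against 48.6% of all genes. In spaceflight, replicate 3 exceeded replicate 4 for 19 of 21 skeletal and 7 of 10 cardiac genes, against 46.4% of all genes. The median SD of the 42 genes was 0.49 in spaceflight and 0.34 in ground control, against 0.21 and 0.14 over all genes. It was larger in spaceflight for 34 of 42 genes, against 74.6% of all genes, and without spaceflight replicate 1 for 19 of 42, against 67.1% of all genes. Without spaceflight replicate 1 the spaceflight median was 0.29, and the cardiac class median had an SD of 0.09 over the other 3 spaceflight arrays where the skeletal class median had 0.44. Over all 4 spaceflight arrays these SDs were 0.36 for cardiac and 0.54 for skeletal. In ground control the cardiac SD was the larger, 0.37 against 0.29.

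**Figure D4:**
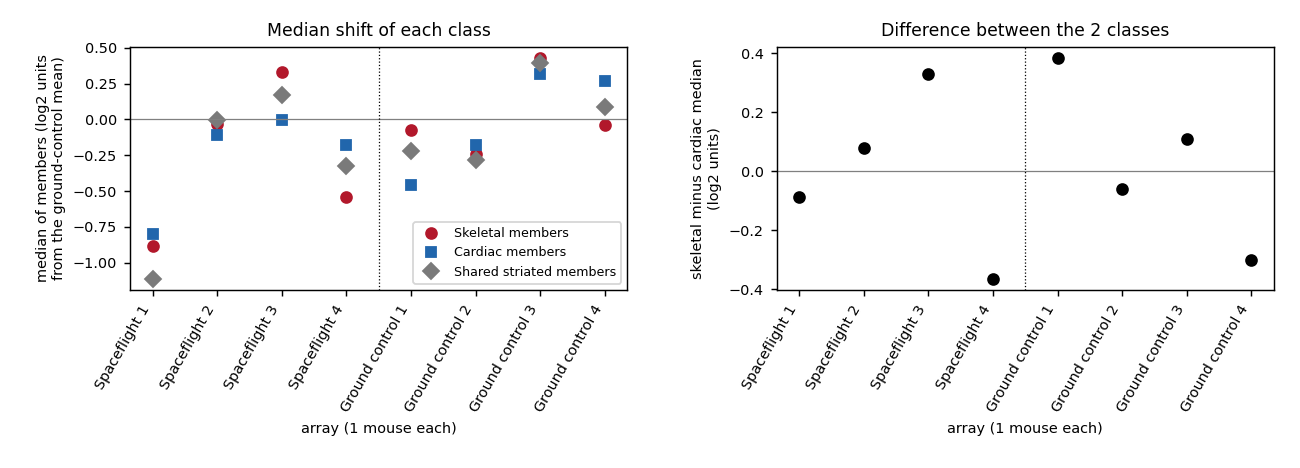
Left, median of each muscle class on each array, in log2 units from the ground-control mean; right, skeletal minus cardiac median on the same arrays, with spaceflight left of the dotted line. All classes are lowest in spaceflight replicate 1, and the right panel runs from -0.37 to 0.38 with both groups on either side of 0.

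Of 32 further sarcomere and Z-disc genes measured (33 listed), 0 passed and the median difference was -0.19. At an unadjusted p under 0.05, 1 was lower and 1 higher, where 7% of all genes were lower and 3.05% higher. The lower gene was Cryab (a small heat shock protein bound to desmin, -0.67). The higher gene was Lmod2 (leiomodin, which lengthens cardiac thin filaments, 0.47). Xirp2 differed by -0.82 and Ankrd1 by -0.45. Of 15 muscle energy genes, 0 passed and the median was -0.19. At an unadjusted p under 0.05, 1 was lower (7% of all genes), the insulin-sensitive glucose transporter Slc2a4 (-0.61). Aldoa (-0.50), Cox8b (-0.46) and Gys1 (-0.34) came next. Without spaceflight replicate 1 the medians of these 2 lists were -0.02 and -0.07. Of 19 calcium handling and excitation genes (21 listed), 0 passed, with a median of -0.01. The junctophilin Jph1 (-0.42) was lower at an unadjusted p under 0.05, again against 7% of all genes. Jph2 (0.19), Cacna1s (-0.18) and Kcnj2 (-0.24) followed.

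Regulators of muscle identity were measured as well. Of 11 myogenic transcription factors and satellite cell genes measured (12 listed), 0 passed, the median difference was 0.05 and 1 spanned at least 1 log2 unit over the 8 arrays. The smallest p-values belonged to Srf (-0.30), Vgll2 (0.14), Pax7 (0.19) and Mef2d (-0.14). The median shift of this list was 0.16 in spaceflight replicate 1 and lay between -0.02 and 0.05 on the other arrays. Of 9 cardiac transcription factors (10 listed), 0 passed, the median was -0.08, and Tbx5 (-0.27), Gata6 (-0.24), Hand1 (0.14) and Shox2 (-0.11) had the smallest p-values. Of 10 genes of the acetylcholine receptor and the motor endplate, 0 passed and the median was 0.10. At an unadjusted p under 0.05, Chrna1 (0.27) and Chrne (0.47) were higher, where 3.05% of all genes were higher. Chrna1 is the muscle receptor's alpha subunit and an autoantigen of myasthenia gravis. Chrnd (0.31) and Chrnb1 (-0.22) had the next smallest p-values. The list's median shift was 0.22, 0.01, 0.24 and 0.04 in spaceflight replicates 1 to 4. Replicates 1 and 3 were the arrays with the narrowest spread of values over all probe sets (interquartile range 2.43 in both). Whether this spread moved genes of low level, on this list or the myogenic list, was not tested. Without spaceflight replicates 1 and 3 the differences were 0.15 for Chrna1 and 0.13 for Chrne.

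Genes whose pattern over the 8 arrays was closest to the mean of the skeletal genes were sought among 2108 other genes with a range of at least 1 log2 unit. The measure was the root mean square difference between mean-centred log2 profiles. The 8 closest were Cmya5 (0.10 log2 units), Myom2 (0.11), Myot (0.11), Apobec2 (0.12), Tpm1 (0.13), Tpm2 (0.13), Nexn (0.15) and Nrap (0.15), of which all but Apobec2 stood on the list of further sarcomere and Z-disc genes. For the cardiac mean the 8 closest were Pf4 (0.09), Tmod1 (0.13), Cluh (0.13), Myoz2 (0.14), Lipe (0.15), Sln (0.15), Sfxn1 (0.15) and Mlip (0.15). Sln, sarcolipin, inhibits the calcium pump in atria, Tmod1 caps thin filaments, Lipe is the hormone-sensitive lipase of fat cells and Pf4 is a platelet chemokine.

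Markers of other tissues also varied by array. The squamous epithelium list (7 of 7 measured) had median shifts of -4.03, 0.35, 0.24 and -1.91 in spaceflight replicates 1 to 4, against 0.07, -0.06, 0.77 and -0.74 in ground control. Its keratin Krt13 had 5.52, 11.38, 11.34 and 9.24 in spaceflight, against 11.23, 11.03, 11.91 and 10.47 in ground control. Spaceflight replicates 1 and 4, low for the skeletal genes, were the lowest arrays here too. The sum of the 7 genes on the linear scale ran from 289 to 6974 units in spaceflight and from 3119 to 9428 units in ground control. The airway list (6 of 6 measured) summed to 358 to 7393 units in spaceflight and 5112 to 11949 units in ground control. Its median shifts were -2.72, -1.01, -0.13 and 0.24 in spaceflight, against -0.54, 0.21, 0.55 and -0.37 in ground control. No marker was listed at 0, since the values are logarithms with a floor set by background. The part of these tissues in the muscle differences was not tested.

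Fat, vessel and smooth muscle markers were also low in spaceflight replicate 1. White fat markers (8 of 9 measured) had median shifts of -1.10, -0.25, -0.32 and -0.22 in spaceflight, against -0.08, -0.02, 0.30 and -0.19 in ground control, and summed to 2894 to 5537 units in spaceflight and 4753 to 6403 units in ground control. Brown fat markers (8 of 9 measured) had a median shift of -1.10 in spaceflight replicate 1 and of 0.04 to 0.14 in the other spaceflight arrays, with sums of 2002 to 4880 units in spaceflight and 3783 to 5255 units in ground control. Fabp3 and Cox8b stood on both this list and that of muscle energy genes. At an unadjusted p under 0.05, 4 of 8 white fat, 4 of 7 cortical epithelium and 3 of 9 medullary epithelium markers were lower, against 7% of all genes. Smooth muscle genes (11 of 11 measured) had a median difference of -0.36 (-0.19 without spaceflight replicate 1), 0 passed, and 4 were lower at that threshold. Cnn1, a calponin, had 5.94, 5.85, 6.32 and 6.28 in spaceflight, against 6.79, 6.70, 6.84 and 6.65 in ground control, with no overlap and a difference of -0.64 ± 0.13 (limma adjusted p = 0.177; -0.59 without spaceflight replicate 1). Actg2 (-0.37), Synpo2 (-0.41) and Acta2 (-1.05) followed. Without spaceflight replicate 1 these differed by -0.34, -0.27 and -0.59 in the same order. The sum of the smooth muscle genes ran from 996 to 2090 units in spaceflight and from 1872 to 3135 units in ground control.

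Endothelial markers (5 of 5 measured) had sums of 725 to 1030 units in spaceflight and 807 to 1376 units in ground control, and their median shift was -0.75 in spaceflight replicate 1 and 0.62 in ground-control replicate 3, the arrays at either end for muscle genes. Fibroblast markers (6 of 6 measured) had -0.74 and 0.50 on those 2 arrays, with sums of 1475 to 3981 units in spaceflight and 2319 to 4017 units in ground control. Medullary epithelium (9 of 9 measured) had median shifts of -0.44, -0.22, -0.33 and 0.06 in spaceflight and of -0.05 to 0.06 in ground control. Double-positive thymocyte markers (8 of 8 measured) lay between -0.32 and -0.01 in spaceflight and between -0.05 and 0.02 in ground control. Their lowest array was spaceflight replicate 3, where skeletal muscle genes were high and the spread over all probe sets was narrow (interquartile range 2.43). In ground-control replicate 3, where skeletal genes were highest, these markers were at -0.05. In spaceflight replicate 1, where skeletal genes were lowest, they were at -0.15. A link between the 2 sets of genes was not tested. Cortical epithelium (7 of 7 measured) lay between -0.51 and -0.21 in spaceflight and between -0.04 and 0.08 in ground control, with sums of 4721 to 6457 units in spaceflight and 5867 to 6210 units in ground control. Thyroid and parathyroid markers (5 of 7 measured) had a median difference of 0.02, and nerve markers (3 of 6 measured) of -0.07.

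**Figure D5:**
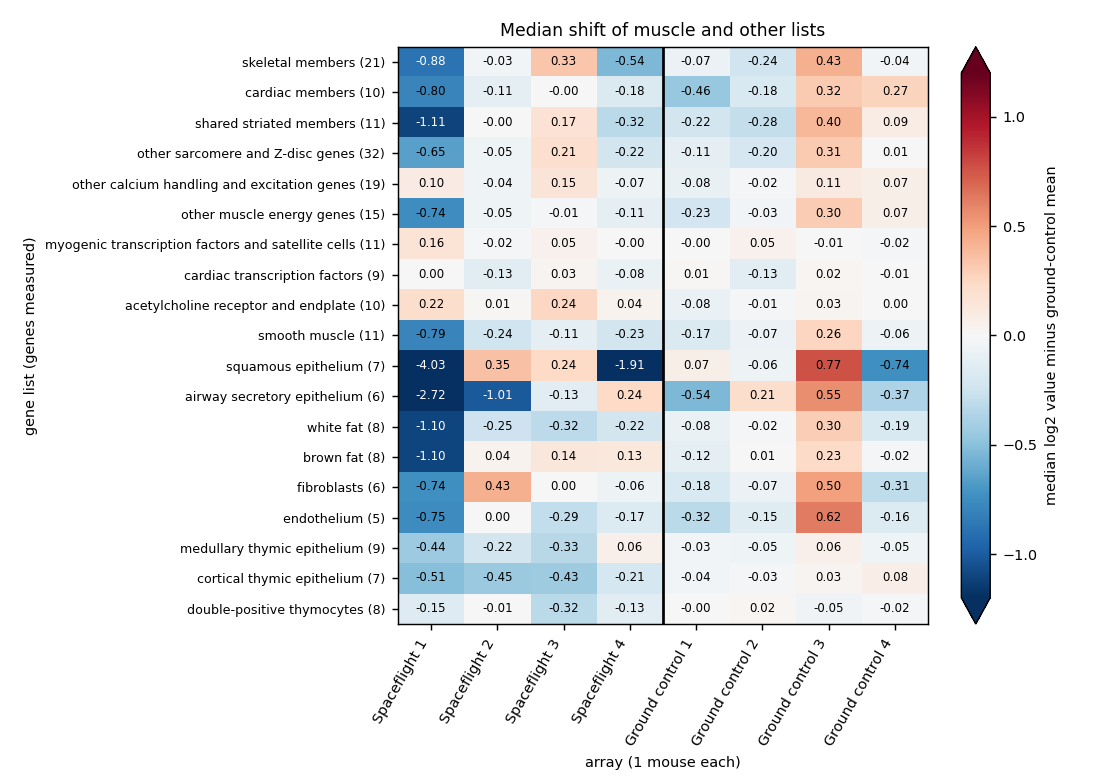
Median log2 shift from the ground-control mean for the muscle classes, further muscle lists and markers of other tissues (rows, with the number of genes measured) on each array (columns, spaceflight left of the line), with the value printed in each cell and colour limited to 1.2 log2 units either way. Spaceflight replicate 1 is low for filament genes, squamous and airway epithelium, fat, fibroblasts and endothelium, and is 0.16 for myogenic transcription factors and -0.15 for double-positive thymocytes. Spaceflight replicates 1 and 3 had the narrowest spread of values over all probe sets, and its part in these shifts was not tested.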

How the data were processed

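Thymus lobe RNA of 8 mice was hybridised to Affymetrix arrays, as biotin-labelled cRNA made from 6 µg of Trizol-extracted total RNA. Expression is on a log2 scale in the table the authors deposited. RMA and limma appear in the submitters' processing notes. Their versions, the genome build and any filter are not given in the sources used here.

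Of 35557 probe sets, the lowest unbroken run of identifiers (6614, with no annotated gene) was left out. Of the other 28943, 21789 had 1 gene in the platform annotation, 1621 several and 5533 none. Symbols were updated through RefSeq (GRCm38.p6, 21698 matched), and each gene took its probe set of highest mean, giving 19938 genes. The groups were tested with limma 3.58.1 in R 4.3.3 (two-sided, without a replicate block on 8 arrays). P-values were adjusted over all genes by Benjamini-Hochberg, with a threshold of 0.05. Fits without an array used the same model. The number of arrays limits the precision, and pooling of RNA is not mentioned in the labels. In data simulated for this comparison (19938 genes), the test recovered 28% of genes shifted by 0.5 log2 units, 84% at a shift of 1 and 98% at 2. The shifted genes were drawn from all genes, with noise independent between genes, and 156 genes were called, against 10 in the measured data. The muscle genes varied more (median SD 0.49 in spaceflight and 0.34 in ground control, against 0.21 and 0.14), so these shares are not theirs. Alternatives were 75th percentile centring, repeated quantile normalization, a filter on dim probe sets, the mean of all probe sets of a gene, array weights, the replicate number as a block, and arrays left out.

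The muscle genes and the other lists were chosen with earlier results of these data known. All muscle genes could be named, with array values for the 4 of smallest p and the 4 of widest range in each class. Of each other list, up to 4 genes of smallest p could be named. Array values of Rag1, Krt13, Cnn1, Myh6 and Neb, and the fast and slow pairs, were chosen after their values were seen. Same-numbered mice had deviations from their group means that correlated at 0.251, -0.397, -0.287 and 0.096, so the numbers were not taken to pair them.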

Additional observations from a re-analysis of the deposited data

Results flagged for a closer look

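Over the 42 muscle genes and the class medians, 92 groups of 4 arrays were checked for an array standing apart from the others of its group, and 4 were found, where chance gives about 1 in 20. Actn3 was at 6.13 in spaceflight replicate 1, with a gap to the next array of 0.903 of the group's range. Des was at 5.31 in spaceflight replicate 1, with a gap of 0.846 of the range. Neb was at 7.07 in ground-control replicate 3, above the others by 0.901 of the range. Tnni1 was at 5.51 in spaceflight replicate 2, below the others by 0.862 of a range of small width. No class median stood apart by this measure.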

How the results depend on the processing

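The count of muscle genes at a limma adjusted p under 0.05 was 0 under each alternative run. The count at an unadjusted p under 0.05 was 3 as reported, 6 with the mean of all probe sets of a gene (14.3%, against 10.9% of all genes), 10 with the replicate block (9 lower, 1 higher; 23.8%, against 8.53% of all genes) and from 2 to 9 without single arrays (with the share of all genes between 5.74% and 16.3%). The cause was not tested. With the replicate block 0 of all genes passed after adjustment. The block cannot move a mean difference in this balanced design, nor can the mean of probe sets for these genes, which have 1 each, nor the dim filter. With 75th percentile centring, which moved the median of all genes from -0.02 to 0.06, 1 muscle gene was lower and 1 higher at an unadjusted p under 0.05, and the split over all genes was 840 lower and 1037 higher, against 1396 lower and 609 higher as reported. The class medians then were -0.21, -0.23 and -0.18. Array weights gave -0.22, -0.23 and -0.14. Without single arrays the medians ran from -0.45 to -0.07 for skeletal, from -0.41 to -0.12 for cardiac, from -0.49 to 0.02 for shared genes, and from -0.16 to 0.10 for skeletal minus cardiac. Under the settings that can move a difference, 38 of 504 differences of the 42 genes changed sign, in 14 genes, 28 of them without single arrays (12 without spaceflight replicate 1). Centring gave Myh2 0.0498 and Tnnc1 0.038, and repeated quantile normalization gave Myh7 -0.0381 and Tnnc1 0.0237. Array weights gave Myh2 0.0025, Myh7 -0.0654 and Tnnc1 0.0037. Without spaceflight replicates 1 and 3 the values were 0.0063 for Actn2, -0.2123 for Myh7 and 0.1514 for Tnnc1. Without single arrays the ranges were -1.18 to 0.17 for Myh1, -0.1446 to 0.0649 for Myh2, -0.541 to 0.059 for Tnnc2, -0.3471 to 0.0305 for Tnni2, -0.83 to 0.14 for Tnnt3, -0.1855 to 0.3589 for Neb, -0.261 to 0.0506 for Mybpc2, -0.7992 to 0.0229 for Pygm, -0.1874 to 0.2475 for Myh6, -0.4218 to 0.0206 for Actn2, -0.1351 to 0.1082 for Myh7, -0.5444 to 0.0222 for Myl3, -0.1422 to 0.1253 for Tnnc1 and -0.4855 to 0.1436 for Ttn. The dim filter removed Myh2, Myl2 and Pvalb from the test.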
